A study of Mus musculus with 12 samples.

Results

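The genes described here are 10 that control the shape and removal of mitochondria. Mfn1, Mfn2, Opa1 and Oma1 are grouped here under mitochondrial fusion, Dnm1l, Fis1 and Mff under fission, and Pink1, Bnip3l and Fundc1 under mitophagy. Oma1 is placed there as the protease that cuts OPA1, so a group does not stand for a shared direction of action. They were chosen by name, and each had at least 1 probe set whose only gene symbol was its own, so all 10 of 10 were among the 19937 genes measured. The probe set with the highest mean stood for a gene with more than 1.

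Total RNA from the heart was profiled on 12 arrays, with 4 from IDH2 R140Q mutant mice, 4 from IDH2 R172K mutant mice and 4 from control mice, and each array is labelled as a replicate of its group. IDH2 is the mitochondrial isocitrate dehydrogenase, and both mutations are known to make it produce D-2-hydroxyglutarate. Mice of all groups had a mixed C57BL/6, 129/sv and Balb/c background. Mutant mice, aged 5 weeks, received 2 mg of 4-hydroxytamoxifen over 3 days. The sources used here do not give the treatment of control mice, the driver of the mutant allele, the sex of the mice or their age at dissection. Against control hearts, the drug and the mutation therefore cannot be told apart. The labels do not say that each array came from its own mouse, so a p-value measures only how these samples spread, which may be technical.

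Mitochondria form a network that is remodelled by fusion and fission. Mitofusins join the outer membranes, Opa1 joins the inner membranes, and the dynamin-related GTPase encoded by Dnm1l constricts the organelle after adaptors recruit it. Mitophagy, the delivery of mitochondria to lysosomes, is started either by the kinase PINK1 with the ubiquitin ligase parkin or by receptors in the outer membrane such as BNIP3L and FUNDC1. The adult cardiomyocyte is packed with mitochondria, and mice that lack both mitofusins in the heart develop cardiomyopathy.

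Pink1 was the member with the largest difference in either mutant. It was lower in R172K hearts, at 0.623 times its control level, and Bnip3l was 1.196 times its control level there, by a probe set that may read a pseudogene and with a call lost in 15 of 25 alternatives. The values of Pink1 in the 4 R140Q hearts also lay below every control value, although its test in R140Q did not pass. Fusion and fission members did not pass the test in any contrast. Of the 10 members, 2 were called at a limma adjusted p under 0.05 between R172K and control hearts, where 13.0% of all genes were called. Pink1 was the member called lower, as were 6.78% of all genes, and Bnip3l the member called higher, as were 6.23% of all genes. None of 10 was called between R140Q and control hearts, where 2.20% of all genes were called. There 1 member had an unadjusted limma p under 0.05, as had 3394 of all 19937 genes. None of 10 was called between R172K and R140Q hearts, where 1.48% of all genes were called. In that contrast 1 member had an unadjusted p under 0.05, as had 3256 of all 19937 genes. Between R172K and control hearts 3 members had an unadjusted p under 0.05, as had 5302 of all 19937 genes.

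Group values here and below are log2 RMA intensities as mean ± SD of 4 arrays, and differences are log2 differences ± SE from limma. All 10 members had a mean above 5.73, the level below which the dimmest genes were removed in 1 alternative. Array medians of the deposited intensities lay between 74.8 and 78.0. The 12 cardiomyocyte markers lay at log2 intensities of 7.85 or more in every array. The values do not check the genotype, since Idh2 itself, with 12.45 ± 0.14 in R140Q, 12.38 ± 0.33 in R172K and 12.74 ± 0.11 in control hearts, did not pass the test (adjusted p = 0.301 and 0.109). Whether the Idh2 probes bind RNA of the mutant allele is unknown here. Over all genes 439 were called in R140Q against control, 216 higher and 223 lower, which became 288 and 185 with each array centred on its median. In R172K against control 1242 were higher and 1351 lower. In R172K against R140Q 97 were higher and 199 lower, or 78 and 330 with the centring.

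Some arrays stood apart within their group. R172K 4 had the lowest summed intensity of the 12 cardiomyocyte markers, 91149, and of 22 genes of mitochondrial enzymes and import, 81694. It had the highest sums of 9 macrophage markers, 8130, and of 9 fibroblast markers, 24247. Of the mutant arrays, R172K 3 lay nearest the control arrays on the first principal component, at -6.19 against -17.09 for the nearest control array. R140Q 4 carried lung epithelium markers (summed intensity 4940, against 275 to 344 in the 11 other arrays), and control 3 was highest in atrial markers (28626).

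**Figure D1:**
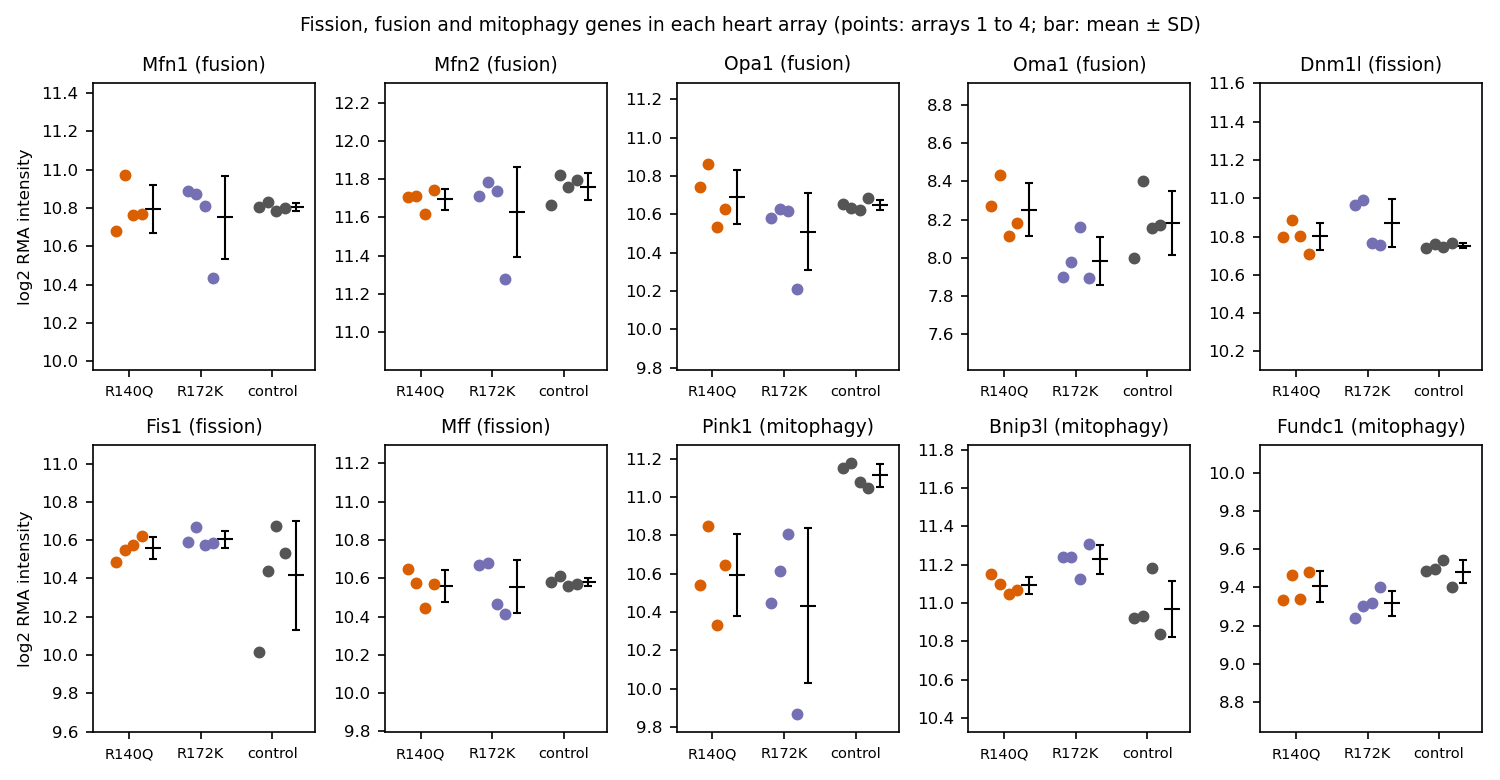
Log2 RMA intensity (vertical axis, the same span in every panel) of the 10 genes in R140Q, R172K and control hearts (horizontal axis). Points are arrays 1 to 4 from left to right and bars are mean ± SD (n = 4). Every Pink1 point of R140Q and R172K lies below the control points, and R172K 4 lies apart for Mfn1, Mfn2, Opa1 and Pink1.

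The promoter of Pink1 is shown because Pink1 had the largest difference among the members. A window at an annotated start of Fundc1 is shown because it is the other member whose R172K and control values did not overlap. Each runs from 250 bases before to 50 after the annotated start, in RefSeq on GRCm38.p6, written 5′ to 3′ on the gene's strand. Capitals mark the GC box GGGCGG on either strand.
Pink1, chr4:138326247-138326546, minus strand: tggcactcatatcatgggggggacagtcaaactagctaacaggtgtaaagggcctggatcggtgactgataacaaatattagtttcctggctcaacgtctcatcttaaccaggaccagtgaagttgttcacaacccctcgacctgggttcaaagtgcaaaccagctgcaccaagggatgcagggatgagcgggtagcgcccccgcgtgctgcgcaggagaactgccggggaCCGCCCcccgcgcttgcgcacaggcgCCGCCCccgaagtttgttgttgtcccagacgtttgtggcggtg
Fundc1, chrX:17571958-17572257, minus strand: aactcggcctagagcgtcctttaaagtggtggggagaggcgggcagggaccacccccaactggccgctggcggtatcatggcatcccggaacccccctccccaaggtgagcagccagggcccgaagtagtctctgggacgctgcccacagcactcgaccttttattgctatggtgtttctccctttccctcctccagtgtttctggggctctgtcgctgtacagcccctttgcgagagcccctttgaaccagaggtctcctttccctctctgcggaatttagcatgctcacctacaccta
The Pink1 window holds 2 GC boxes and the Fundc1 window none. The 2 windows are not alike, since that of Pink1 spans the 5′ end of the gene. The Fundc1 gene runs over chrX:17519967-17572329, so its window lies inside the gene, downstream of the 5′ end. The sequence before that end was not shown, so the Fundc1 window does not tell whether a GC box lies there. Of the 14 windows that RefSeq gives for 9 members, 11 hold a GC box, as do 35.7% of all 32851 windows, and some members have more than 1 window. The nuclear receptor site AGGTCA, present in 16.3% of all windows, the FOXO site GTAAACA, in 3.65%, and the E-box CACGTG, in 7.15%, were searched on both strands and had no match in the 14 windows. Matches of these 3 motifs can share letters, since the first and the second end with the letters that begin the third.

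Pink1, the kinase that accumulates on damaged mitochondria and recruits parkin, lies on chromosome 4 (chr4:138313409-138326296 in GRCm38.p6). Its log2 intensity was 10.54, 10.85, 10.33 and 10.64 in R140Q arrays 1 to 4. It was 10.45, 10.61, 10.80 and 9.87 in R172K arrays 1 to 4, against 11.15, 11.18, 11.08 and 11.05 in control arrays 1 to 4. The highest mutant value of each genotype was below the lowest control value, as it was for 7.04% of all genes in R140Q and 8.72% of all genes in R172K.

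Pink1 fell in R172K hearts, with 10.43 ± 0.41 against 11.11 ± 0.06 in control hearts, a difference of -0.68 ± 0.17 (limma adjusted p = 0.0194). In R140Q hearts it averaged 10.59 ± 0.21, a difference from control of -0.52 ± 0.17 that did not pass (adjusted p = 0.123, 95% interval -0.88 to -0.16). These 2 comparisons share the 4 control arrays. R172K and R140Q hearts differed by -0.16 (95% interval -0.52 to 0.20, adjusted p = 0.723). Pink1 in R140Q did pass with R140Q and control arrays alone (adjusted p = 0.0184), with array weights (0.0149) and without R172K 4 (0.0197). For R172K against control the adjusted p was 0.0411 with those arrays alone, 0.00244 with array weights and 0.0211 without R172K 4.

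The lowest Pink1 value was that of R172K 4, and leaving that array out gave -0.493 for R172K against control (adjusted p = 0.0211) and 0.0297 for R172K against R140Q (adjusted p = 0.943). Without control 1, control 2 or R172K 1 the R172K call ended (adjusted p = 0.052, 0.0549 and 0.052), with differences of -0.669, -0.661 and -0.687. Summed intensities of the cardiomyocyte markers were 104493 to 112119 in R140Q, 91149 to 110897 in R172K and 110271 to 120799 in control hearts. In these sums the arrays did not keep the order of Pink1 throughout. R172K 4 was lowest in both, while R140Q 2 had the highest R140Q value of Pink1, 10.85, and the lowest R140Q sum, 104493. The cardiomyocyte sum includes Nppa, which was 7.85 in R140Q 2 against 12.74, 13.2 and 12.81 in R140Q 1, 3 and 4. The sum of the 22 mitochondrial enzyme and import genes had the order of Pink1 in R172K 1 to 4 (95774, 98311, 102175 and 81694). That sum was highest in R140Q 2 (108213), as Pink1 was among R140Q arrays. R140Q 1 and R140Q 4 (100384 and 97891) were not in the order of Pink1. Of the 12 cardiomyocyte markers, 6 were called lower in R172K and 0 in R140Q. In R140Q, 10 of the 12 still had a negative difference from control, as had 9798 of all 19937 genes. There 7 of the 12 lay below every control value in all R140Q arrays, as did 7.04% of all genes. Of the 22 mitochondrial enzyme and import genes, 7 were called lower in R172K and 0 in R140Q. In R140Q, 18 of the 22 had a negative difference, and 7 lay below every control value in all R140Q arrays. Their sums were 96591 to 108213 in R140Q, 81694 to 102175 in R172K and 107793 to 111489 in control hearts. Of 8 endothelial markers, 3 were called higher in R140Q and 2 in R172K. Their sums were 9925 to 10432 in R140Q, 8673 to 10097 in R172K and 7757 to 8191 in control hearts. Of 9 fibroblast markers, 0 were called higher in R140Q and 4 in R172K. Their sums were 11992 to 16805 in R140Q, 14183 to 24247 in R172K and 11728 to 16173 in control hearts. Over all genes, 6.23% were called higher and 6.78% lower in R172K, and 2.20% were called in either direction in R140Q. The part of these markers in the Pink1 and Bnip3l results was not tested. In bulk heart RNA, fewer cells of a type and less RNA per cell cannot be told apart.

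The genes whose values over the 12 arrays, each centred on its own mean, lay nearest to Pink1 were Thrb, a thyroid hormone receptor, Kyat1, a kynurenine aminotransferase, and Cmya5, a muscle protein of the Z-disc region. The root mean square difference from Pink1 was 0.0828 log2 units for Thrb, 0.104 for Kyat1 and 0.105 for Cmya5, against a median of 0.384 over all genes. Because they were chosen for likeness on these arrays, their R172K differences of -0.65 for Thrb, -0.56 for Kyat1 and -0.81 for Cmya5 follow from the choice and are a description.

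Bnip3l, which encodes the outer membrane mitophagy receptor NIX that clears mitochondria from maturing red cells, had log2 intensities of 11.15, 11.10, 11.05 and 11.07 in R140Q arrays 1 to 4. It had 11.24, 11.24, 11.12 and 11.31 in R172K arrays, against 10.92, 10.93, 11.18 and 10.84 in control arrays. R172K overlapped with control only through control 3, which was above R172K 3.

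Bnip3l rose in R172K hearts, with 11.23 ± 0.08 against 10.97 ± 0.15 in control hearts, a difference of 0.26 ± 0.08 (limma adjusted p = 0.0412). In R140Q hearts the difference from control was 0.12 ± 0.08 (adjusted p = 0.466), and R172K and R140Q differed by 0.14 (95% interval -0.03 to 0.30, adjusted p = 0.413). The R172K call rests on a narrow margin: it was kept in 2 of the 12 fits that left out 1 array each, namely without control 3 and without R172K 3, where the differences were 0.329 (adjusted p = 0.0136) and 0.293 (adjusted p = 0.0209). In the 10 others the adjusted p was 0.0524 to 0.113. Bnip3l is on chromosome 14 (chr14:66985238-67008877), and RefSeq also lists a pseudogene, Bnip3l-ps, on chromosome 12 (chr12:18216547-18217776). A pair of probe sets carries the symbol Bnip3l. The 20 probe sets nearest in number to the one used are mostly of chromosome 12 genes (19 of 20), and those nearest to the other are mostly of chromosome 14 genes (19 of 20). Signal of the gene and of its pseudogene cannot be told apart with the annotation at hand. The other probe set gave an R172K difference of 0.211 (adjusted p = 0.0847) and an R140Q difference of 0.118 (adjusted p = 0.48).

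The genes nearest to Bnip3l by the same measure were Tex10 (0.0522), the transcription elongation gene Supt6 (0.0534) and the RNA-binding gene Stau1 (0.0636), against a median of 0.199 over all genes. Their R172K differences, which follow from the choice in the same way, were 0.22 for Tex10, 0.19 for Supt6 and 0.28 for Stau1.

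Fundc1, an outer membrane receptor known for mitophagy in low oxygen, is X-linked. It had log2 intensities of 9.34, 9.47, 9.34 and 9.48 in R140Q arrays 1 to 4. It had 9.24, 9.31, 9.32 and 9.40 in R172K arrays, against 9.49, 9.50, 9.55 and 9.40 in control arrays. The R172K and control values did not overlap, but the gap between the highest R172K array and the lowest control array was 0.0037. The difference of -0.17 ± 0.06 in R172K did not pass (9.32 ± 0.07 against 9.48 ± 0.06 in control hearts, limma adjusted p = 0.0995, 95% interval -0.30 to -0.03). It passed with array weights (-0.198, adjusted p = 0.0299). In R140Q the difference from control was -0.08 ± 0.06 (adjusted p = 0.596).

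**Figure D2:**
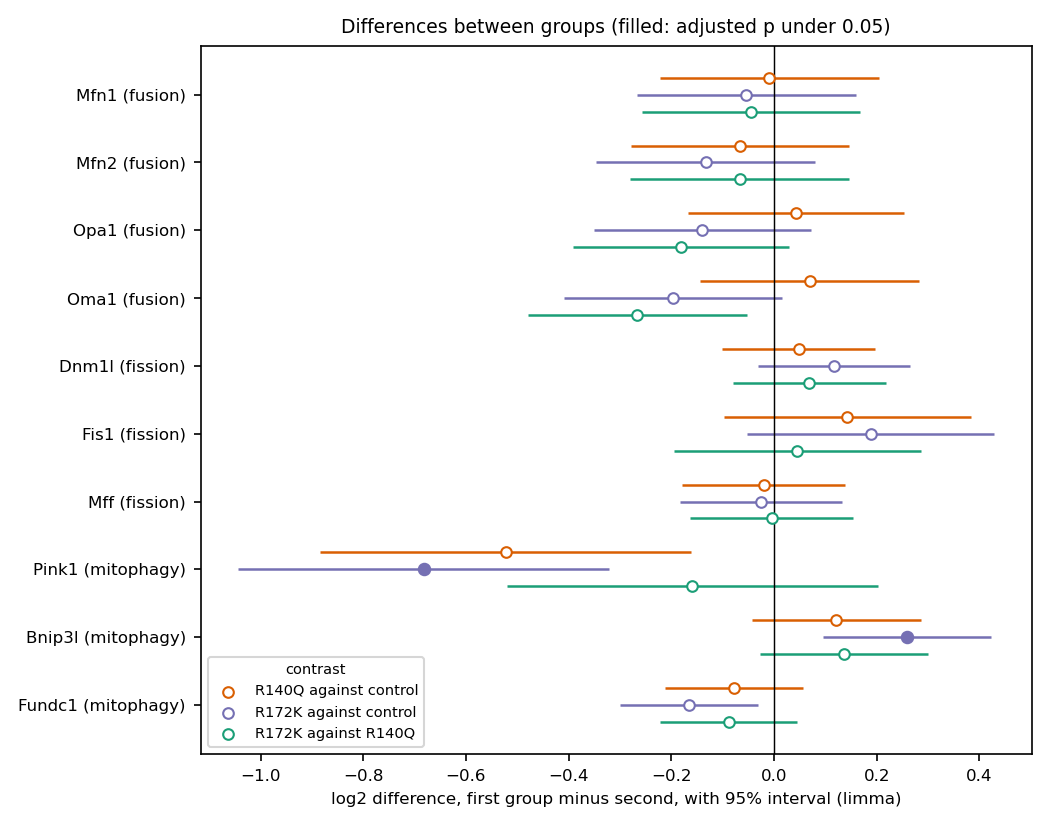
Log2 differences (horizontal axis) of the 10 genes (vertical axis) for R140Q against control, R172K against control and R172K against R140Q, with 95% intervals from limma. Filled points passed at an adjusted p under 0.05, which only Pink1 (-0.68) and Bnip3l (0.26) did, both in R172K against control.

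The fusion genes are led by the mitofusins, outer membrane GTPases that tether neighbouring mitochondria. Mfn1 had log2 intensities of 10.68, 10.97, 10.76 and 10.77 in R140Q arrays 1 to 4. It had 10.89, 10.88, 10.81 and 10.43 in R172K arrays, against 10.81, 10.83, 10.79 and 10.80 in control arrays. The control arrays lay within 0.05 log2 units of one another, and 3 of 4 R172K arrays were above the control mean while R172K 4 was far below it. Differences from control were -0.01 ± 0.10 in R140Q (limma adjusted p = 0.978, 95% interval -0.22 to 0.20) and -0.05 ± 0.10 in R172K (adjusted p = 0.791, 95% interval -0.27 to 0.16). The sign of the R140Q value turned with each array centred on its median (0.0149), and that of the R172K value turned without R172K 4 (0.0528) and with array weights (0.024).

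Mfn2, the mitofusin that also tethers mitochondria to the endoplasmic reticulum, had 11.71, 11.71, 11.62 and 11.75 in R140Q arrays 1 to 4. It had 11.71, 11.79, 11.74 and 11.28 in R172K arrays, against 11.66, 11.82, 11.76 and 11.80 in control arrays. R172K 4 was again the lowest array. The differences from control were -0.07 ± 0.10 in R140Q (adjusted p = 0.815) and -0.13 ± 0.10 in R172K (adjusted p = 0.44, 95% interval -0.35 to 0.08), and the R172K value was -0.0171 without R172K 4.

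Opa1, the inner membrane fusion GTPase that also shapes cristae, had 10.74, 10.86, 10.53 and 10.63 in R140Q arrays 1 to 4. It had 10.58, 10.63, 10.62 and 10.21 in R172K arrays, against 10.65, 10.63, 10.63 and 10.69 in control arrays. The R172K arrays were all below the R140Q mean, and R172K 4 was the lowest of the 12. Differences from control were 0.04 ± 0.10 in R140Q (adjusted p = 0.889) and -0.14 ± 0.10 in R172K (adjusted p = 0.408, 95% interval -0.35 to 0.07), or -0.04 in R172K without R172K 4.

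Oma1, the stress-activated protease that cuts OPA1, had 8.27, 8.43, 8.11 and 8.18 in R140Q arrays 1 to 4. It had 7.90, 7.98, 8.16 and 7.89 in R172K arrays, against 7.997, 8.40, 8.16 and 8.17 in control arrays. R172K 3 was the highest R172K array and overlapped with both other groups. The differences were 0.07 ± 0.10 for R140Q against control (adjusted p = 0.803) and -0.20 ± 0.10 for R172K against control (adjusted p = 0.227). R172K and R140Q differed by -0.27 ± 0.10, the member with the smallest p in that contrast, which did not pass (unadjusted p = 0.0182, adjusted p = 0.192, 95% interval -0.48 to -0.05).

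**Figure D3:**
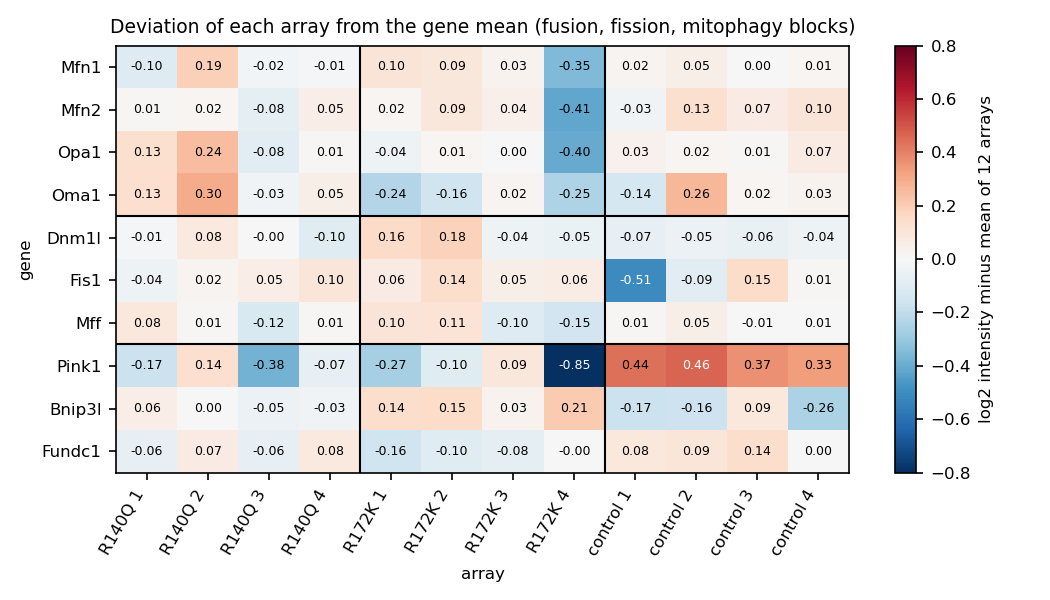
Log2 intensity minus the gene's mean over 12 arrays (colour and printed value) for each gene (rows, in fusion, fission and mitophagy blocks) and array (columns, R140Q, R172K, control). Pink1 is above its mean in the 4 control arrays. In R172K 4 every gene but Fis1 and Bnip3l is below its mean, with Fundc1 almost at it (9.4000 against 9.4015).

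None of the 3 fission genes passed in any contrast. Dnm1l, the GTPase that divides mitochondria, had 10.80, 10.89, 10.80 and 10.71 in R140Q arrays 1 to 4. It had 10.96, 10.99, 10.77 and 10.76 in R172K arrays, against 10.74, 10.76, 10.75 and 10.77 in control arrays. R172K 1 and R172K 2 were above the other 10 arrays, while R172K 3 and R172K 4 lay within or next to the control values. The differences from control were 0.05 ± 0.07 in R140Q (limma adjusted p = 0.807) and 0.12 ± 0.07 in R172K (adjusted p = 0.313, 95% interval -0.03 to 0.27), and the R172K value passed with array weights (0.179, adjusted p = 0.0485), which gave R172K 3 and R172K 4 weights of 0.365 and 0.366.

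Fis1, an outer membrane protein first known as a fission adaptor in yeast, had 10.49, 10.55, 10.58 and 10.62 in R140Q arrays 1 to 4. It had 10.59, 10.67, 10.58 and 10.58 in R172K arrays, against 10.02, 10.44, 10.67 and 10.54 in control arrays. Here the spread lay in the controls, with an SD of 0.28 against 0.06 in R140Q and 0.04 in R172K hearts, and control 1 was the lowest array. The differences from control were 0.14 ± 0.11 in R140Q (adjusted p = 0.584) and 0.19 ± 0.11 in R172K (adjusted p = 0.316). Without control 1 they were 0.0102 and 0.0554.

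Mff, the main receptor for the fission GTPase on the outer membrane, had 10.65, 10.58, 10.45 and 10.57 in R140Q arrays 1 to 4. It had 10.67, 10.68, 10.46 and 10.41 in R172K arrays, against 10.58, 10.61, 10.56 and 10.57 in control arrays. The R172K arrays fell on either side of the control values. Differences from control were -0.02 ± 0.07 in R140Q (adjusted p = 0.933, 95% interval -0.18 to 0.14) and -0.02 ± 0.07 in R172K (adjusted p = 0.879, 95% interval -0.18 to 0.13), and both changed sign under some alternatives.

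The other genes of these pathways came from 5 lists written by role, with 74 measured genes beside the members. In R172K against control hearts 6 of 74 were called higher and 9 lower, against 6.23% and 6.78% of all genes. The median difference was 0.03 against 0.00 over all genes. In R140Q against control hearts 1 was called higher and 1 lower, where 2.20% of all genes were called. The median was 0.02 against 0.00 over all genes. The count moved with that of all genes when an array was left out. Without R172K 3 the R172K count was 28 and 4157 of all 19937 genes were called, against 2593 with all arrays. Without R172K 1 it was 8, and 1327 of all genes were called. The R140Q count was 0 without control 1, control 2 or control 3, or without R140Q 1, R140Q 3 or R140Q 4. In those fits 100 to 260 of all genes were called, against 439 with all arrays.

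**Figure D4:**
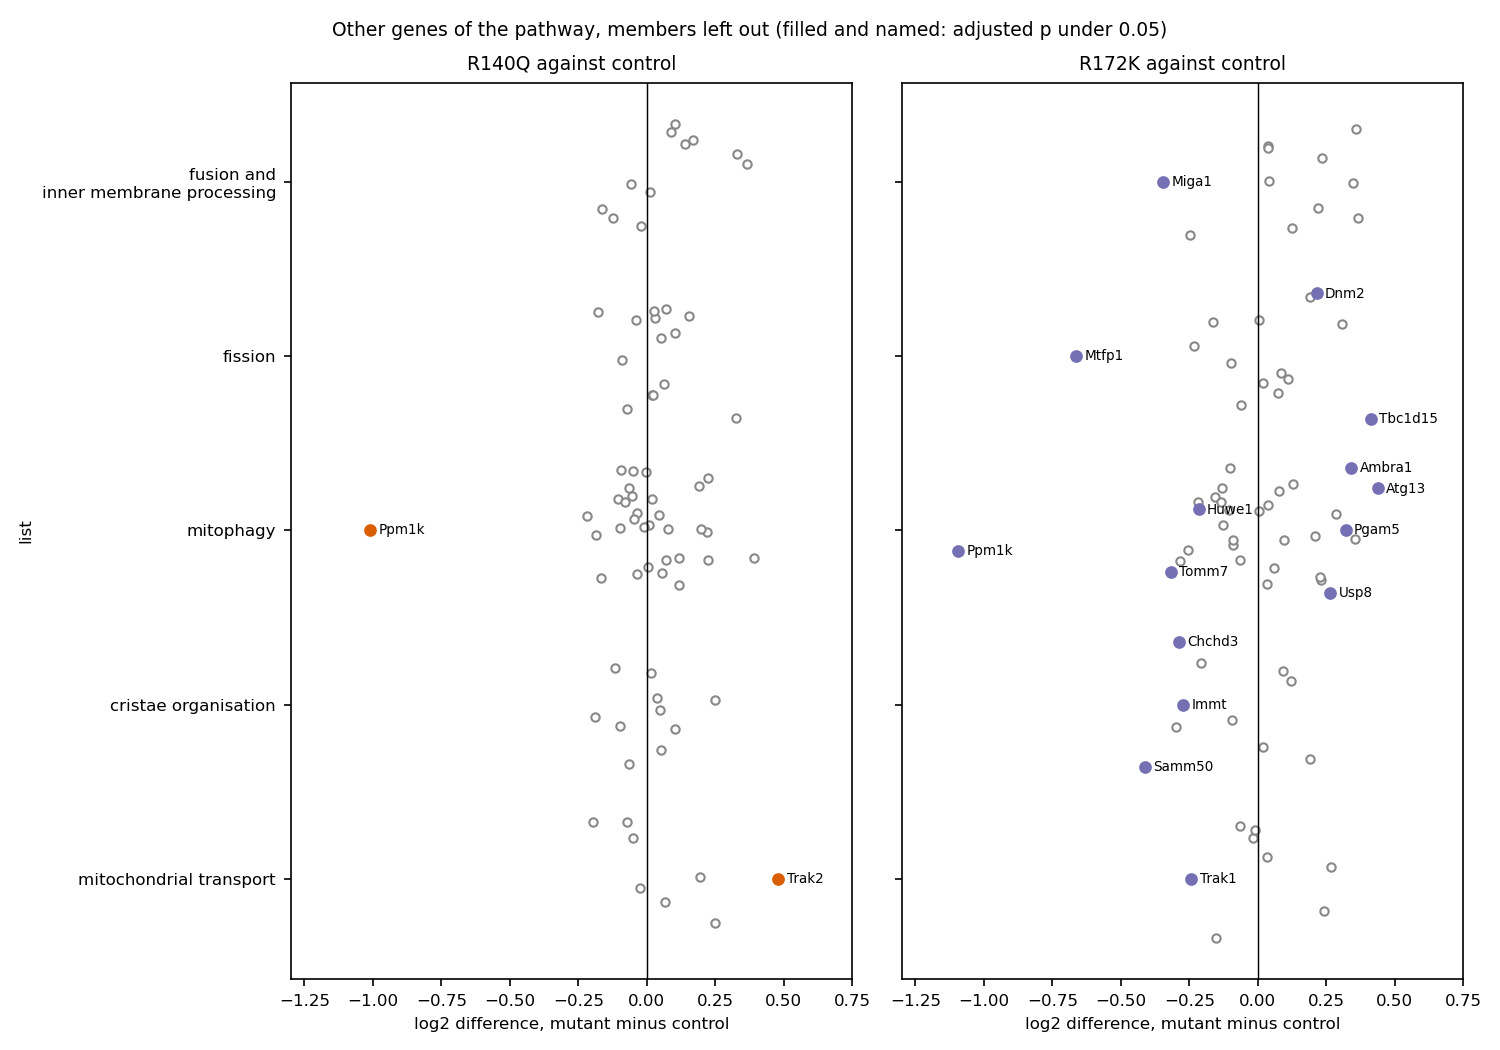
Log2 differences (horizontal axis) of the 74 other pathway genes, by list (vertical axis), for R140Q against control and R172K against control. Each point is a gene, spread vertically for legibility, and filled, named points passed at an adjusted p under 0.05: 2 in R140Q and 15 in R172K.

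Among fission genes other than the members, those that passed went in opposite directions in R172K hearts. Of 17 on the list, members included, 2 rose, 1 fell and 14 did not pass, where 6.23% of all genes rose and 6.78% fell. Mtfp1, an inner membrane protein that promotes fission, had 9.06, 9.47, 9.68 and 8.95 in R172K arrays 1 to 4, against 9.75, 10.05, 9.94 and 10.06 in control arrays, and fell by 0.66 (limma adjusted p = 0.013). Tbc1d15, a Rab GTPase-activating protein bound by FIS1, had 8.95, 8.97, 8.79 and 8.94 in R172K arrays, against 8.53, 8.58, 8.43 and 8.45 in control arrays. It rose by 0.41 (adjusted p = 0.00721), and it was also higher in R172K than in R140Q hearts, by 0.36 (adjusted p = 0.0474). The call between the mutants was lost in 15 alternatives at the same threshold, the replicate block (adjusted p = 0.076) and the fit without R172K 4 (0.0645) among them. Dnm2, a dynamin better known from endocytosis, rose by 0.21 (adjusted p = 0.0466), a call that was lost in 16 alternatives at the same threshold.

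Of 34 mitophagy genes measured, members included, 5 rose, 4 fell and 25 did not pass in R172K hearts. Over all genes 6.23% rose and 6.78% fell there. Ambra1, an autophagy scaffold that can act on mitochondria, had 8.79, 8.74, 8.56 and 8.78 in R172K arrays 1 to 4, against 8.44, 8.32, 8.46 and 8.29 in control arrays. It rose by 0.34 (limma adjusted p = 0.00966), and was higher than in R140Q hearts by 0.34 (adjusted p = 0.045). That call between the mutants was also lost in 15 alternatives at the same threshold, with an adjusted p of 0.0948 with the replicate block and 0.0593 without R172K 4. Atg13, of the complex that starts autophagy, rose by 0.44 (adjusted p = 0.0222). The mitochondrial phosphatase gene Pgam5, whose product acts on FUNDC1, rose by 0.32 (adjusted p = 0.0271), and the deubiquitinase gene Usp8, which acts on parkin, by 0.26 (adjusted p = 0.0199). At the same threshold the R172K call was lost in 5 alternatives for Atg13, in 5 for Pgam5 and in 6 for Usp8, and with the replicate block the adjusted p was 0.0549 for Atg13 and 0.0537 for Usp8.

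The mitophagy genes that fell beside Pink1 were Tomm7, an import subunit that stabilises PINK1 on the outer membrane (-0.32, limma adjusted p = 0.013), Huwe1, a ubiquitin ligase (-0.22, adjusted p = 0.0353), and Ppm1k. The Huwe1 call was lost in 10 alternatives at the same threshold, with an adjusted p of 0.0812 with the replicate block. Tomm7 had 9.17, 9.15, 9.10 and 8.95 in R172K arrays 1 to 4, against 9.49, 9.43, 9.38 and 9.34 in control arrays, so the groups did not overlap. Ppm1k is best known as the phosphatase of the branched-chain ketoacid dehydrogenase rather than for mitophagy. It had 8.98, 9.32, 8.61 and 9.04 in R140Q arrays and 8.69, 8.86, 9.69 and 8.38 in R172K arrays, against 10.13, 10.23, 9.88 and 9.76 in control arrays. It fell in both mutants, by 1.01 in R140Q (adjusted p = 0.0479) and by 1.09 in R172K (adjusted p = 0.0113), and the R140Q call was lost in 12 alternatives at the same threshold. Bnip3, the paralog of Bnip3l, differed by 0.22 in R140Q (adjusted p = 0.499) and 0.23 in R172K (adjusted p = 0.342). Parkin is not analysed here.

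On the list of fusion and inner membrane processing, 1 of 15 measured genes passed in R172K hearts, and none in R140Q. Miga1, an outer membrane protein that promotes fusion, had 7.45, 7.62, 7.77 and 7.69 in R172K arrays 1 to 4, against 7.92, 7.95, 8.06 and 7.99 in control arrays, and fell by 0.35 (limma adjusted p = 0.0175). Its adjusted p was 0.0575 without R172K 1. Of 10 genes of cristae organisation, 3 were called lower in R172K hearts, as were 6.78% of all genes, and none was called higher. They were the outer membrane assembly gene Samm50 (-0.41, adjusted p = 0.0156) and the MICOS genes Chchd3 (-0.29, adjusted p = 0.0137) and Immt (-0.27, adjusted p = 0.0423). Immt had 11.32, 11.40, 11.38 and 11.03 in R172K arrays, against 11.52, 11.62, 11.52 and 11.55 in control arrays, and its call was lost in 13 alternatives at the same threshold. In the same hearts 6 of 12 cardiomyocyte markers and 7 of 22 mitochondrial enzyme and import genes were called lower. R172K 4 had the lowest sum of both lists and of the cristae genes. Their part in the cristae result was not tested.

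The adaptors that link mitochondria to kinesin passed in different contrasts, Trak2 in R140Q and Trak1 in R172K hearts. Trak2 had 11.44, 11.02, 11.40 and 11.36 in R140Q arrays 1 to 4 and 11.01, 11.15, 10.95 and 11.15 in R172K arrays, against 10.81, 10.88, 10.73 and 10.88 in control arrays. It rose in R140Q hearts by 0.48 (limma adjusted p = 0.0222), a call lost in 8 alternatives at the same threshold, and its difference of 0.24 in R172K did not pass (adjusted p = 0.103). Trak1 fell in R172K hearts by 0.24 (adjusted p = 0.0198, lost in 2 alternatives) and differed by -0.05 in R140Q (adjusted p = 0.762). Among 8 measured genes of mitochondrial transport these were the only ones that passed. Over all genes 13.0% passed in R172K and 2.20% in R140Q against control.

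**Figure D5:**
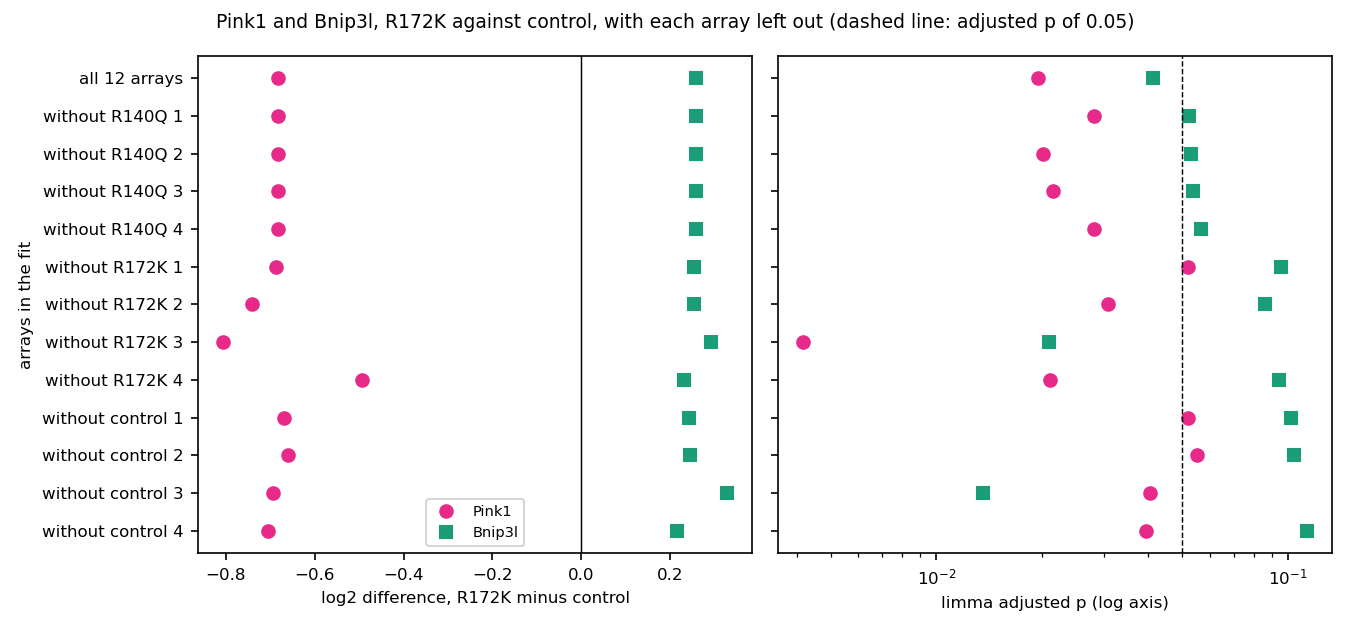
Log2 difference (left) and limma adjusted p on a log axis (right) of Pink1 and Bnip3l in R172K against control, from all 12 arrays and with each array left out (vertical axis). The Pink1 difference stays between -0.806 and -0.493 and passes in 9 of 12 such fits, while Bnip3l stays between 0.215 and 0.329 and passes in 2 of 12.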

How the data were processed

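Per the submitters' processing notes the authors processed the arrays with RMA, a method that subtracts background, quantile normalizes and combines probes into a probe set value. The deposited intensity is linear, as judged from its values, not log2 as planned for, so log2 of it was taken with no pseudocount. The sources used here do not give RMA's version or annotation. GEO's platform table gave 1 symbol to 21640 of 34760 probe sets, several to 1321 and none to 11799, which left 19937 genes after keeping the probe set of highest mean for each.

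Group means were fitted for all genes and 12 arrays together by limma (version 3.58.1, R 4.3.3), using lmFit, then eBayes, with two-sided tests, and p-values were adjusted by Benjamini-Hochberg over all genes of a contrast. The fit was also run on simulated data in which a gene had the same spread in every array. That run did not cover arrays of unequal spread, such as R172K 3 and R172K 4 with array weights of 0.365 and 0.366. The number of arrays limits the precision. All 10 members were named, with up to 6 called genes per list and the 3 nearest profiles of each called member; Huwe1 and Bnip3 fall outside this rule and were picked after their values were seen. Promoters came from RefSeq tables for GRCm38.p6. Members and lists were chosen with earlier results of these data known. Alternatives covered the arrays fitted, a replicate block, probe set choice, a filter on dim genes, normalization, variance model, array weights, thresholds and each array left out.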

Additional observations from a re-analysis of the deposited data

Results flagged for a closer look

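In groups of 4 arrays, a member's highest or lowest array was set against the rest, and its gap to the nearest array was compared with Dixon's 95% critical value for its share of the group's range. Of 30 groups, 4 exceeded it, where chance gives about 1 in 20. R172K 4 was low for Mfn1 (10.43, ratio 0.837), Mfn2 (11.28, ratio 0.849) and Opa1 (10.21, ratio 0.878), 3 fusion genes in the same array. R172K 2 was high for Fis1 (10.67, ratio 0.844), in a group with an SD of 0.04.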

How the results depend on the processing

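Of 750 repeats of the 30 member differences (25 alternatives each), 702 kept direction and side of the threshold, 23 changed sign, 19 lost a call and 6 gained one. Values that changed sign were at most 0.0691 in size with an adjusted p of at least 0.592. The cause was not tested. Centring on the median moved every difference by 0.024, -0.005 and -0.029 in the 3 contrasts, and turned Mfn1 (0.0149) and Mff (0.00383) in R140Q. Array weights turned Mfn1 (0.024) and Mff (0.0431) in R172K, and both between the mutants (0.0478 and 0.0691). Without control 3, R140Q 4 and R172K 3 together, Mff between the mutants was 0.03.

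With 1 array left out, R140Q differences ranged from -0.0682 to 0.0295 for Mfn1, -0.0143 to 0.0947 for Opa1 and -0.0491 to 0.0178 for Mff. R172K differences ranged from -0.0988 to 0.0528 for Mfn1 and -0.0652 to 0.0232 for Mff. Between the mutants the ranges were -0.0898 to 0.0619 for Mfn1, -0.119 to 0.049 for Mfn2, -0.045 to 0.0433 for Mff and -0.283 to 0.0297 for Pink1. Members called were 0 to 1 in R140Q, 0 to 2 in R172K and 0 to 0 between the mutants. Genes called were 100 to 1015, 1327 to 4157 and 1 to 1577.

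Replicate numbers are not stated to pair the arrays. Deviations of same-numbered arrays correlated between -0.336 and 0.152, over 0.1 in 2 of 12 pairs, and 3 of 12 arrays matched best with their own number. With the replicate number as a block, 196 genes were called in R140Q and 11 between the mutants, and 1 member in R172K, since Bnip3l had an adjusted p of 0.0906.

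In R140Q, 1 member (Pink1) was called with only the 2 groups compared or with array weights, where 1342 and 1651 genes were called. All probe sets in the fit gave 271 genes, a threshold of 0.01 gave 73 and one of 0.10 gave 1046. In R172K, 1 member was called with the 2 groups alone, all probe sets or the other Bnip3l probe set, which was added after seeing the data, 4 with array weights and 0 at 0.01. Genes called were 4491 with weights and 773 at 0.01. Between the mutants they were 9 with the 2 groups alone, 179 with trend and robust, 1774 with weights, 5 with all probe sets, 1 at 0.01, 867 at 0.10 and 806 without the 3 arrays together. Of 19 calls of other pathway genes none reversed, and 7, all in R172K against control, held in every alternative at a threshold of 0.05 or above. Both calls between the mutants were lost in 15.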
